A study of Mus musculus with 20 samples.

Results

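Cells of the mouse macrophage line RAW264.7 treated for 4 hours with the BET inhibitor I-BET alone (500 nM) were compared with untreated cells taken at hour 0. RNA sequencing gave 2 libraries of each, 4 of the 20 libraries in the series, and the members are all genes: 16042 of the 50686 genes in the deposited table had enough counts to be tested. The other 16 libraries, 2 per group, came from cells given I-BET alone for 14 or 24 hours, and RANKL (50 ng/ml) with or without 500 nM I-BET for 4, 14 or 24 hours. RAW264.7 is a single transformed line that forms osteoclasts when given the cytokine RANKL, and all groups share it; the labels name bone marrow as the source and a monocyte-derived line as the cell type. Of the untreated cells, only hour 0 is used here, so I-BET treatment and 4 hours in culture cannot be told apart in this comparison. The labels do not say that libraries of 1 group came from separate cultures, so p-values measure the spread between these libraries, which may be technical.

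BET proteins carry paired bromodomains that bind acetylated lysines on histones and help to recruit the elongation kinase P-TEFb to promoters and enhancers. I-BET occupies the acetyl-lysine pocket and releases BET proteins from chromatin. In macrophages, BET inhibitors are known for lowering part of the inducible inflammatory and interferon-driven transcription, and in many cell types for raising HEXIM1 and certain histone transcripts and lowering MYC.

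Library totals were 44110595 and 41523157 counts in I-BET-treated cells and 19051780 and 40202063 counts in untreated cells. Macrophage markers were found in all 4 libraries, at differing levels. Csf1r, the receptor of macrophage colony-stimulating factor, had 1920 and 2294 CPM (counts scaled to library size with TMM factors) in I-BET-treated cells. It had 2028 and 2189 CPM in untreated cells. In CPM of the total counts, Fcgr1 had 11.8 and 13.5 with I-BET, against 37.7 and 41.8 untreated. The markers Fcgr1, Itgam and Msr1 were called lower with I-BET (log2 −1.82, −0.61 and −1.06). Of 42 tested genes of macrophage receptors and identity, 0 were called higher. Markers of other cell types were near 0, with the 13 lymphocyte markers summing to 0.113 to 0.193 CPM of the total counts, 11 to 12 of them at 0 in each library, and the 13 markers of fibroblasts, endothelium and epithelium summing to 0.199 to 0.315 CPM. The 11 markers of neutrophils and mast cells summed to 0.567 and 0.289 CPM in I-BET-treated cells, against 0.210 and 0.274 CPM in untreated cells, with 8 to 9 at 0. The 9 markers of erythroid cells and platelets, 6 of them at 0 in each library, were higher with I-BET, at 1.38 and 1.25 CPM, against 0.997 and 0.771 CPM, and 1 of them was called higher when the library number was fitted as a block. Untreated library 2 stood apart from the other 19 libraries of the series, since 5 rRNA-related genes took 9.02% of all counts in it and 0.125% to 0.789% in the others. RNAs without a poly(A) tail summed to 2896 and 1386 CPM in I-BET-treated cells, against 2381 and 56490 CPM in untreated cells. This sum and the sums of markers of other cell types are in CPM of the total counts. Gene list counts that move by more than 1.5 times without untreated library 2 are therefore given both ways. In bulk samples, fewer cells of a type and less RNA per cell cannot be told apart.

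I-BET-treated cells had 647 genes called higher and 1039 called lower than untreated cells, which is 4.03% and 6.48% of the genes tested and 10.5% together (edgeR quasi-likelihood test, adjusted p under 0.05, 2 libraries per group). The median log2 fold change over all genes was 0.01, the median of the genes called higher was 0.70 and that of the genes called lower −0.77. Changes of more than 1 log2 unit were called for 172 genes in the upward and 405 in the downward direction. In 1675 of the 1686 called genes the libraries of the 2 groups did not overlap; over all tested genes both I-BET-treated libraries lay above both untreated ones in 24.9% and below them in 26.5%. Leaving out I-BET library 1 left 397 higher and 599 lower, I-BET library 2 left 198 and 318, untreated library 1 left 238 and 520, and untreated library 2 left 196 and 435. With the library number as a block 2058 genes were called higher and 2593 lower (12.8% and 16.2%, together 29.0%). On the deposited RPKM, with no TMM scaling, limma on log2(RPKM + 1) placed the median of all genes at 0.11 and 72.3% of calls were upward, against 38.4% with edgeR on counts.

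**Figure D1:**
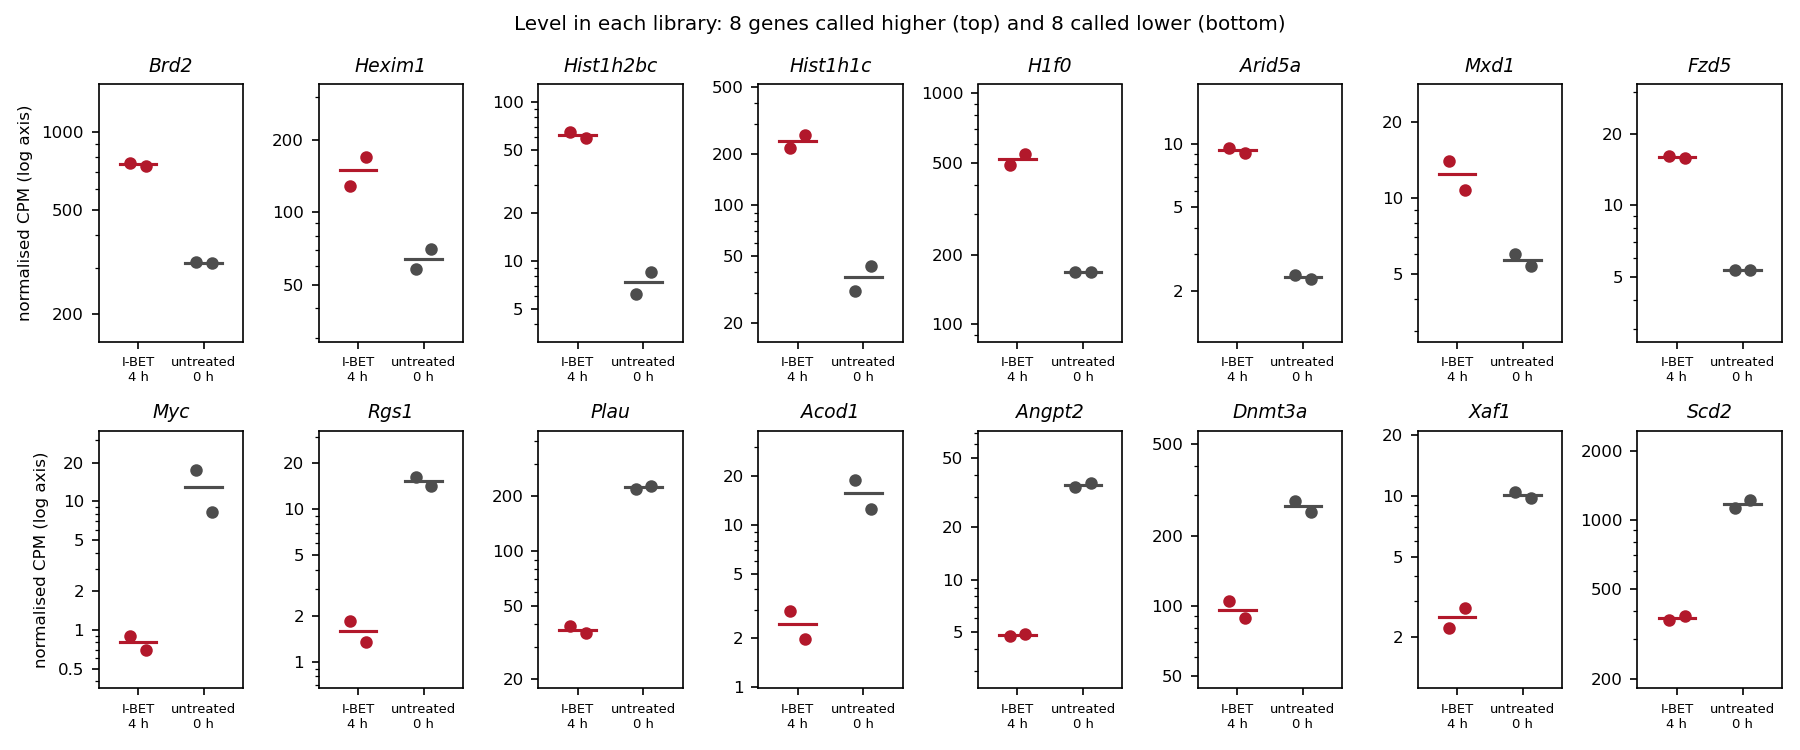
CPM (log axis) of 16 genes in the I-BET-treated libraries at 4 hours (left in each panel) and the untreated libraries at hour 0 (right); each point is a library and each bar the mean of 2. The upper 8 genes are called higher and the lower 8 called lower, and the groups do not overlap in any panel, for example Brd2 at 759 and 739 against 315 and 312 CPM.

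Among genes of BET-dependent transcription, Brd2 and Hexim1 rose. Brd2 (chr17:34112023-34122634, mm10), which encodes a BET protein itself, had 759 and 739 CPM in I-BET-treated cells, against 315 and 312 CPM in untreated cells. Both treated libraries were far above the untreated ones, and the log2 fold change was 1.26 ± 0.08 (SE; edgeR adjusted p = 3.8e-06). Hexim1 (chr11:103116231-103119725), whose protein holds P-TEFb in an inactive complex with 7SK RNA, had 129 and 170 CPM, against 57.9 and 70.3 CPM in untreated cells, a log2 fold change of 1.22 ± 0.20 (edgeR adjusted p = 0.0021). Both calls stood without each of the 4 libraries in turn. Brd3, another BET gene, had 103 and 90.5 CPM with I-BET and 108 and 92.8 CPM untreated (log2 fold change −0.05 ± 0.15, edgeR adjusted p = 0.89). Cdk9, the kinase of P-TEFb, had 115 and 141 CPM against 103 and 114 CPM and was not called (log2 0.23 ± 0.18, edgeR adjusted p = 0.50), but was called with the replicate block (adjusted p = 0.017). Over the 17 tested genes of P-TEFb and its control, 3 rose and 1 fell (8 and 1 with the block). The shares over all genes were 4.03% and 6.48% (12.8% and 16.2% with the block). Besides Hexim1, the elongation factor genes Ell (log2 0.48) and Supt5 (0.35) rose and Hexim2 fell (−1.07). Ell lost its call without I-BET library 2 or untreated library 2, Supt5 also without untreated library 1, and Hexim2 without any 1 of the 4 (edgeR adjusted p 0.12 to 0.22).

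Myc, a transcription factor gene of growth and proliferation (chr15:61985341-61990374), was among the largest falls. It had 0.897 and 0.702 CPM in I-BET-treated cells, against 17.7 and 8.32 CPM in untreated cells. The treated libraries were close together and far below both untreated ones, which differed from each other, and the log2 fold change was −3.99 ± 0.40 (edgeR adjusted p = 5.8e-05). Mxd1, which encodes a repressor that competes with MYC for the partner MAX, moved the other way: 14.1 and 10.8 CPM against 6.01 and 5.42 CPM, log2 1.13 ± 0.17 (edgeR adjusted p = 0.0012). These were the only called genes among 12 tested in the MYC and MAX network (with the block 3 rose and 1 fell), and both stood without each library. Genes of ribosome biogenesis and nucleotide synthesis, many of them known MYC targets, moved little at 4 hours: 0 of 40 rose and 4 fell (Dkc1, Wdr12, Noc2l and Paics, by 0.32 to 0.52 log2), with a list median of −0.13. With the block 2 rose and 12 fell. The shares over all genes were 4.03% higher and 6.48% lower, and 12.8% and 16.2% with the block. Noc2l lost its call without I-BET library 1 or either untreated library, Dkc1 without I-BET library 2, and Wdr12 and Paics without any 1 of the 4 (edgeR adjusted p 0.056 to 0.28).

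Histone genes split into a group that rose and a low-level group. The fall of the low-level group was not called without untreated library 2, nor without either I-BET library. Of 36 tested, 6 rose, against 4.03% of all genes. Hist1h2bc (chr13:23684199-23692488), a histone H2B gene, had 64.4 and 59.2 CPM in I-BET-treated cells, against 6.21 and 8.57 CPM in untreated cells. That is 3.05 ± 0.19 on the log2 scale (edgeR adjusted p = 3.8e-06), the largest rise among called genes with a mean of at least 5 CPM. The linker histone gene Hist1h1c (chr13:23738808-23740367) had 219 and 258 CPM, against 31.1 and 43.7 CPM untreated (log2 2.67 ± 0.21, edgeR adjusted p = 2.2e-05). H1f0, which encodes the linker histone of non-dividing cells and has a polyadenylated transcript, had 489 and 545 CPM, against 168 and 168 CPM (log2 1.62 ± 0.17, edgeR adjusted p = 6.1e-05). Hist3h2a was at 4.57 and 3.58 CPM, against 0.828 and 1.24 CPM, and these 4 calls stood without each library. Hist1h4i (log2 1.58) and Hist2h2be (0.57) were also called, but not without I-BET library 2 (edgeR adjusted p 0.070 and 0.16) and, for Hist2h2be, without untreated library 2 (0.15). All 6 also rose when I-BET was given with RANKL, in RANKL plus I-BET compared with RANKL at 4 hours, where 4.93% of all genes were called higher.

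The other 11 called histone genes were lower, and none of these calls stood without untreated library 2, or without either I-BET library. Their CPM summed to 2.59 and 1.56 in I-BET-treated cells, against 3.16 and 50.2 in untreated cells, so the treated libraries were far below untreated library 2 and near untreated library 1. With the block 19 of 36 were called lower and 6 higher, against 16.2% and 12.8% of all genes. Without untreated library 1, I-BET library 1 or I-BET library 2, 41 histone genes were tested, with medians of −3.67, −3.17 and −2.47 log2. Most replication-dependent histone transcripts end in a stem-loop instead of a poly(A) tail, and these libraries were made from poly(A)-selected RNA. Untreated library 2 is the library with the high share of RNAs lacking a poly(A) tail; the part of that in these 11 falls was not tested. The median log2 fold change of the 36 genes was −2.66 with all libraries and 0.53 without untreated library 2, where 5 genes were called higher and 0 lower (1.16% and 2.58% of all genes). With RANKL, 8 of the 36 rose and 0 fell (median 0.89). Histone genes form families of near-identical copies, and their counts are uncertain where reads could be split between copies.

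**Figure D2:**
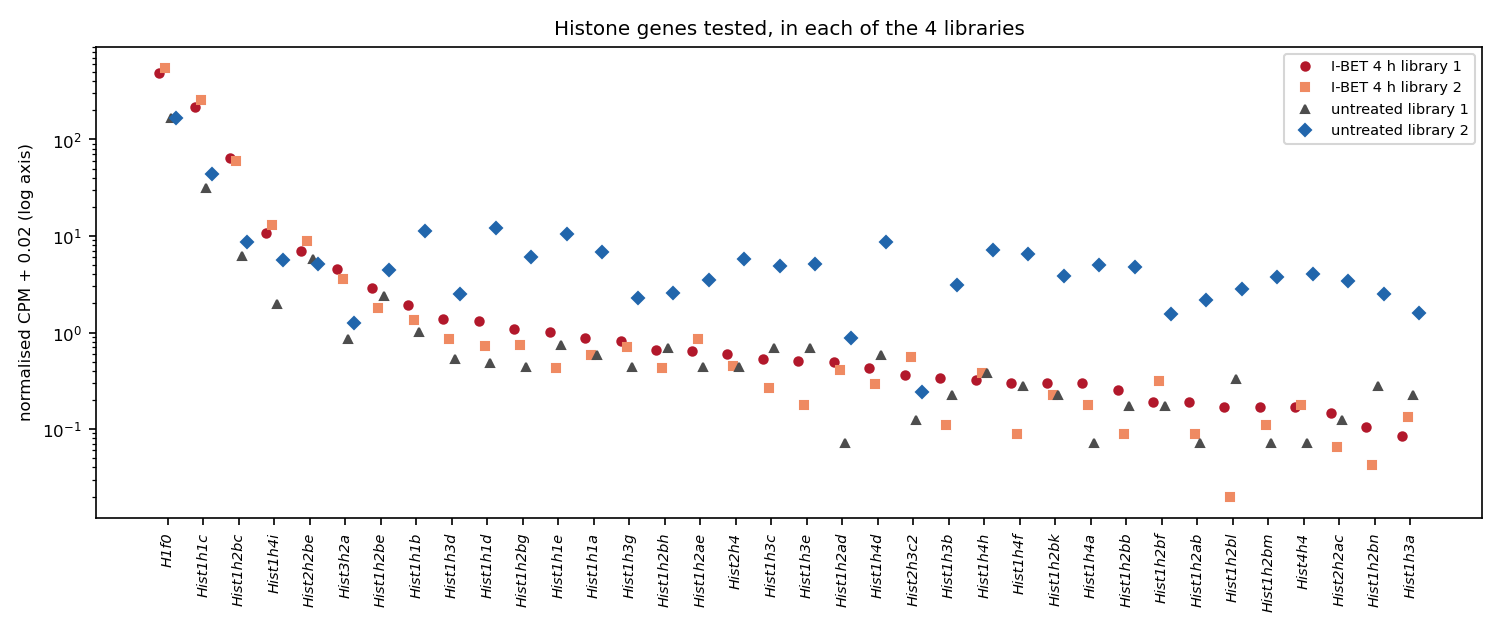
CPM with a small constant added (log axis) of the 36 tested histone genes in the 2 I-BET-treated libraries and the 2 untreated libraries, with 1 place per gene along the horizontal axis. Hist1h2bc, Hist1h1c and H1f0 are higher in both treated libraries. The 11 genes called lower sum to 50.2 CPM in untreated library 2, against 3.16 CPM in untreated library 1 and 2.59 and 1.56 CPM with I-BET.

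The type I interferon response genes fell. Of 40 tested, 26 were lower in I-BET-treated cells and 0 higher, against 6.48% of all genes called lower, and the list median was −1.13. The same 26 genes summed to 378 and 355 CPM with I-BET, against 886 and 851 CPM untreated. Leaving out 1 library left 18 (I-BET library 1), 12 (I-BET library 2), 19 (untreated library 1) or 17 calls (untreated library 2), and 12 genes kept the call in every case. With the block 33 were lower and 1 higher, against 16.2% and 12.8% of all genes. All 26 were also lower in RANKL plus I-BET than in RANKL at 4 hours, where 29 of the 40 and 6.46% of all genes were called lower.

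Rtp4, which encodes a receptor transporter protein, had 3.97 and 5.35 CPM in I-BET-treated cells, against 28 and 33.2 CPM in untreated cells (log2 −2.72 ± 0.40, edgeR adjusted p = 0.00097). Irf9 (chr14:55603571-55610030), the DNA-binding subunit of the factor ISGF3 that signals from the interferon receptor, had 18.2 and 18.1 CPM, against 46.0 and 47.5 CPM (log2 −1.37 ± 0.14, edgeR adjusted p = 5.6e-05). Xaf1 (chr11:72301629-72313733), an interferon-induced pro-apoptotic gene, had 2.22 and 2.79 CPM, against 10.5 and 9.81 CPM (log2 −2.02 ± 0.25, edgeR adjusted p = 0.00027). In all 3 genes the treated libraries were well below the untreated ones, and all 3 kept the call without each library. Cmpk2, Ifi203, Ifi204, Parp14, Oas2, Oasl1, Ifit1, Ifit2 and Slfn8 complete the 12 that did so, with log2 fold changes of −1.84 to −1.13. The transcription factor gene Irf7, itself an interferon target, had 17.3 and 23.8 CPM with I-BET and 23.9 and 31.4 CPM without, so that the groups nearly met, and was not called (log2 −0.43 ± 0.42, edgeR adjusted p = 0.62).

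ISGF3 binds the interferon-stimulated response element, searched here as GAAA, any 2 bases and GAAA on both strands in the 250 bases before the RefSeq start. The element was found in 12 of the 29 tested list genes with a promoter in the RefSeq table (41.4%) and in 7 of the 19 among those that fell (36.8%), against 829 of 27025 promoters (3.07%). The list was drawn up as interferon targets, so the share describes the list and not the response to I-BET. Of those that fell, 4 are printed below to show the element, in capitals, on the gene's strand (GRCm38.p6): Ifit1 and Ifit3 encode RNA-binding antiviral proteins, Oas3 an oligoadenylate synthetase and Slfn8 a schlafen protein. The windows are chr19:34583279-34583528 (+) for Ifit3, chr19:34640639-34640888 (+) for Ifit1, chr11:83020811-83021060 (−) for Slfn8 and chr5:120777660-120777909 (−) for Oas3.
Ifit3: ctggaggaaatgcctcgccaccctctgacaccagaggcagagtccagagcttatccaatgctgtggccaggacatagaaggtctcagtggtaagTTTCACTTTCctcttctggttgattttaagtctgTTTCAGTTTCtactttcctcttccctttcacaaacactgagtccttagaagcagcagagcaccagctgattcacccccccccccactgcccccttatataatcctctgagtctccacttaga
Ifit1: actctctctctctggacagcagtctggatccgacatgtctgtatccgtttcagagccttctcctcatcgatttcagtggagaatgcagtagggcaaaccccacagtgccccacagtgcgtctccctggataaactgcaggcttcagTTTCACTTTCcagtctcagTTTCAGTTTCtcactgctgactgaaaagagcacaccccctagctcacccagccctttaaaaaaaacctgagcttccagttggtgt
Slfn8: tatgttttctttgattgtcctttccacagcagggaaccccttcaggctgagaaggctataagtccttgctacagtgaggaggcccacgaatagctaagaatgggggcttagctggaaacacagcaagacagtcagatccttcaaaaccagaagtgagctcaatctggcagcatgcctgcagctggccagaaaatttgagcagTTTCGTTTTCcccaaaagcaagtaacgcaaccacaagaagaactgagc
Oas3: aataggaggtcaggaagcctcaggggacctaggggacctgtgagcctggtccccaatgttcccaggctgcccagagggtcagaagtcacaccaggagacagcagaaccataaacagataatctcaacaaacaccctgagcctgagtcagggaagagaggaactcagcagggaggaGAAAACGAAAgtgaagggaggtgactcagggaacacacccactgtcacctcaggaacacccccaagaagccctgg

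Ifit3 and Ifit1 each hold 2 copies and Slfn8 and Oas3 1 copy. Ifit1 had 1.77 and 1.34 CPM in I-BET-treated cells, against 6.06 and 5.14 CPM in untreated cells (log2 −1.84 ± 0.29, edgeR adjusted p = 0.0015). Slfn8 had 11.2 and 9.36 CPM, against 26.0 and 25.2 CPM (log2 −1.31 ± 0.22, edgeR adjusted p = 0.0020). Ifit3 was at 0.449 and 0.498 CPM, against 2.17 and 2.21 CPM, and Oas3 at 25.5 and 28.2 CPM, against 61.2 and 61.2 CPM. The treated libraries of all 4 genes were below the untreated ones. The call on Ifit3 was lost without any 1 of the libraries (edgeR adjusted p 0.056 to 0.10) and that on Oas3 without I-BET library 1, I-BET library 2 or untreated library 2 (0.062, 0.057 and 0.050). Ifit and Slfn genes are multigene families, and their counts may share reads.

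Pattern-recognition receptors and other inflammatory effectors were lower. The shares over all genes were 6.48% lower and 4.03% higher. Of 28 tested effectors 15 fell and 0 rose (median −0.83), 11 without I-BET library 1, 7 without I-BET library 2, 11 without untreated library 1 and 9 without untreated library 2. Tlr13 (chrX:106143204-106160493), an endosomal receptor for bacterial ribosomal RNA, had 25.9 and 22.3 CPM in I-BET-treated cells, against 89.5 and 94.0 CPM in untreated cells (log2 −1.93 ± 0.25, edgeR adjusted p = 0.00039). Tlr7, the receptor for single-stranded RNA, had 79.0 and 79.8 CPM, against 207 and 228 CPM (log2 −1.45 ± 0.18, edgeR adjusted p = 0.00025). Tlr4, the lipopolysaccharide receptor, had 43.2 and 40.9 CPM, against 88.6 and 84.0 CPM (log2 −1.04 ± 0.16, edgeR adjusted p = 0.0012). In each of the 3 both treated libraries lay well below the untreated ones. Acod1, which encodes the enzyme that makes itaconate, had 2.95 and 1.97 CPM, against 18.9 and 12.5 CPM (log2 −2.66 ± 0.31, edgeR adjusted p = 0.00018). These 4 genes, Tlr3 and the C-type lectin genes Clec4e and Clec4d kept their calls without each library. Ptgs2, which encodes cyclooxygenase-2, was called at 22.8 and 18.3 CPM against 51.2 and 39.8 CPM, but not without any 1 library (edgeR adjusted p 0.054 to 0.18).

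With RANKL, Tlr4 had 39.6 and 36.3 CPM in RANKL plus I-BET at 4 hours, against 44.3 and 44.5 CPM in RANKL (log2 −0.23, edgeR adjusted p = 0.47). Tlr7 had 72.8 and 90.4 CPM, against 105 and 137 CPM, which was called with the block (log2 −0.57 ± 0.16, adjusted p = 0.016) and not without it (log2 −0.57, edgeR adjusted p = 0.053). For Tlr4 the difference between the I-BET effects alone and with RANKL was −0.81 ± 0.16 with the replicate block (adjusted p = 0.016), but it was not called without the block. For Tlr7 it was −0.89 ± 0.22 (adjusted p = 0.082 with the block). Tlr4 in the RANKL group was itself near the I-BET-alone level of 43.2 and 40.9 CPM.

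Of the cytokine genes more were called lower than higher, and NF-kB feedback genes had calls both ways. The shares over all genes were 4.03% higher and 6.48% lower (12.8% and 16.2% with the block). Il1rn (chr2:24336853-24351494), the gene of the interleukin-1 receptor antagonist, had 14.4 and 11.9 CPM in I-BET-treated cells, against 42.0 and 37.3 CPM in untreated cells (log2 −1.59 ± 0.14, edgeR adjusted p = 2.6e-05). It was 1 of 5 that fell among 27 tested chemokine and cytokine genes (8 with the block; 4, 1, 3 and 3 without I-BET library 1 or 2 or untreated library 1 or 2), and the 1 that kept its call without each library. Cxcl10, an interferon-inducible chemokine gene, had 8.27 and 5.35 CPM, against 18.4 and 16.5 CPM (log2 −1.35 ± 0.24, edgeR adjusted p = 0.0034; 0.058 without I-BET library 2). Tnf was the 1 gene of this list that rose, at 49.0 and 66.7 CPM against 34.8 and 29.2 CPM (log2 0.86 ± 0.25, edgeR adjusted p = 0.042), and it lost the call without I-BET library 2 (0.31) or either untreated library (0.11 and 0.26). Ccl2 and Ccl4, chemokine genes of monocyte recruitment, were not called (log2 −0.04 ± 0.58 and −0.79 ± 0.36, edgeR adjusted p = 0.99 and 0.20). Among 20 NF-kB subunit and feedback genes 2 rose and 3 fell, but 0 fell without any 1 of the 4 libraries and 1 rose in each case except without untreated library 1 (2). Nfkbiz, which encodes an atypical nuclear IkB protein, had 14.6 and 15.4 CPM with I-BET and 6.63 and 7.85 CPM without (log2 1.05 ± 0.18, edgeR adjusted p = 0.0027), and stood without each library.

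Rgs1 and Rgs16, which encode regulators of G-protein signalling, were among the largest falls. Rgs1 (chr1:144242296-144249242), a GTPase activator that dampens chemokine receptor signalling, had 1.86 and 1.34 CPM in I-BET-treated cells, against 16.3 and 14.1 CPM in untreated cells (log2 −3.25 ± 0.42, edgeR adjusted p = 0.00038). Rgs2 had 37.4 and 31.2 CPM, against 73.5 and 75.2 CPM (log2 −1.12 ± 0.11, edgeR adjusted p = 4.2e-05), and both stood without each library. Rgs16 fell by 2.65 on the log2 scale but missed the threshold without I-BET library 2 (edgeR adjusted p = 0.055). Of 27 feedback genes of MAP kinase and cytokine signalling, which include the Rgs genes, 1 rose and 5 fell (2 and 8 with the block); 0 rose without any 1 library and 2 fell without I-BET library 2. Over all genes 4.03% rose and 6.48% fell (12.8% and 16.2% with the block). Of 34 immediate early genes 3 rose and 5 fell (11 and 8 with the block). None of the 3 rises held without each library in turn: 1 was left without I-BET library 1 and 0 without any other, while 3, 2, 3 and 4 falls were left without I-BET library 1 or 2 or untreated library 1 or 2. Klf4, a zinc-finger transcription factor gene, had 12.6 and 13.9 CPM, against 28.3 and 30.8 CPM (log2 −1.16 ± 0.16, edgeR adjusted p = 0.00054), and with the antiproliferative gene Btg1 (−0.79) it kept its call in every case. Fos had 78.0 and 77.3 CPM, against 142 and 106 CPM, and was called with the replicate block (adjusted p = 0.029) and not without it (0.15).

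Surface receptors of macrophages fell. Over all genes 6.48% were called lower and 4.03% higher (16.2% and 12.8% with the block). Of 42 tested genes of macrophage receptors and identity 16 fell and 0 rose (median −0.65), and 26 fell with the block; 8 fell without I-BET library 1, 5 without I-BET library 2, 7 without untreated library 1 and 8 without untreated library 2. The scavenger receptor gene Msr1 had 247 and 229 CPM in I-BET-treated cells, against 504 and 485 CPM in untreated cells (log2 −1.06 ± 0.16, edgeR adjusted p = 0.0013). Gpr183, a receptor for oxysterols, had 53.6 and 60.6 CPM, against 125 and 139 CPM (log2 −1.21 ± 0.18, edgeR adjusted p = 0.00087). Ccr1, a chemokine receptor gene, was near the floor at 0.149 and 0.136 CPM, against 2.49 and 1.08 CPM (log2 −3.56 ± 0.61, edgeR adjusted p = 0.0026). These 3, Siglece and Clec4a3 were the falls that stood without each library. Csf1r, given above, was not called, nor was the myeloid transcription factor gene Irf8, with 59.7 and 80.8 CPM with I-BET and 51.9 and 74.0 CPM without (log2 0.15 ± 0.31, edgeR adjusted p = 0.84). Among 33 myeloid transcription factor genes 5 fell and 0 rose (16 and 5 with the block). Leaving out I-BET library 1 or 2 or untreated library 1 or 2 left 2, 0, 0 or 2 falls, and 0 of the 5 held in every case. Bcl6, a repressor gene, was at 35.6 and 27.9 CPM, against 56.1 and 44.2 CPM (log2 −0.66 ± 0.17, edgeR adjusted p = 0.025; 0.23 without I-BET library 2 and 0.21 without untreated library 1).

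Of 20 osteoclast genes 3 fell and 0 rose before any RANKL was given, against 6.48% and 4.03% of all genes. Dcstamp, needed for cell fusion, had 3.31 and 3.42 CPM in I-BET-treated cells, against 15.3 and 11.3 CPM in untreated cells (log2 −1.98 ± 0.31, edgeR adjusted p = 0.0014). Ocstamp, a related fusion gene, had 2.16 and 2.15 CPM, against 10.4 and 6.19 CPM (log2 −1.92 ± 0.30, edgeR adjusted p = 0.0012). Both kept their calls without each library; Car2, carbonic anhydrase, fell by 0.71 and lost its call without any 1 of them (0.062 to 0.084). Nfatc1, the master transcription factor gene of osteoclasts, had 258 and 151 CPM, against 600 and 342 CPM. Libraries 1 of both groups were higher than libraries 2, and the log2 fold change of −1.20 was not called (SE 0.38, edgeR adjusted p = 0.058), whereas the replicate block called it (SE 0.12, adjusted p = 3.2e-06). With the block 1 osteoclast gene was higher and 10 were lower, against 12.8% and 16.2% of all genes.

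Cholesterol synthesis genes fell against hour 0. For comparison, 6.48% of all genes were called lower and 4.03% higher (16.2% and 12.8% with the block). Of 23 tested genes 10 were lower and 0 higher (median −0.55). Leaving out I-BET library 1, I-BET library 2, untreated library 1 or untreated library 2 left 5, 3, 7 or 5 calls, and the replicate block gave 19. Fdft1, squalene synthase, had 24.2 and 24.3 CPM in I-BET-treated cells, against 50.8 and 50.0 CPM in untreated cells (log2 −1.06 ± 0.15, edgeR adjusted p = 0.00081). Hmgcs1, the synthase upstream of HMG-CoA reductase, had 107 and 82.4 CPM, against 175 and 175 CPM (log2 −0.89 ± 0.15, edgeR adjusted p = 0.0021). Both, with Stard4, stood without each library. Insig1, which retains the SREBP activator complex in the endoplasmic reticulum, had 43.4 and 40.6 CPM, against 75.7 and 87.7 CPM, and lost its call without any 1 library (edgeR adjusted p 0.056 to 0.16). Cyp51, lanosterol demethylase, had 85.8 and 85.5 CPM, against 151 and 183 CPM, and lost it in all cases except without untreated library 1 (0.071 to 0.11).

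The promoters of the cholesterol genes are known for binding NF-Y at CCAAT boxes beside sterol-responsive SREBP. A CCAAT box, searched as CCAAT on both strands in the same 250-base window, was found in 14 of the 16 tested genes with a promoter in the table (87.5%) and in all 7 of those that fell, against 34.3% of the 27025 promoters. The sterol element TCACNCCAC was in 1 of the 16, against 1.01% of all promoters. The list was drawn up as cholesterol genes, so these shares describe the list and not the response to I-BET. A CCAAT box was also in 19 of 28 tested DNA replication genes with a promoter in the table (67.9%). The windows of Cyp51 (chr5:4104698-4104947, −), Insig1 (chr5:28071162-28071411, +) and Hmgcs1 (chr13:119690101-119690350, +) show the box in capitals (GRCm38.p6, on the gene's strand), with ATTGG as its reverse complement.
Cyp51: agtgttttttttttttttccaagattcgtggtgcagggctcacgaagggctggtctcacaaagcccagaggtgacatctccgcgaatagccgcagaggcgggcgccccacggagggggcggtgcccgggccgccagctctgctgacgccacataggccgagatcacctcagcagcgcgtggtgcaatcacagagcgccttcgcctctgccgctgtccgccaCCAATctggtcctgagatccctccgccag
Insig1: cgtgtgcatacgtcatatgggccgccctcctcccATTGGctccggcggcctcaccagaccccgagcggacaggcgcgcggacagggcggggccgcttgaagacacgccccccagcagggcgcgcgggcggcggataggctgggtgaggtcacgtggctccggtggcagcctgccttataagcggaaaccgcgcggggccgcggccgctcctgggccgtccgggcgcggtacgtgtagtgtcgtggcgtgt
Hmgcs1: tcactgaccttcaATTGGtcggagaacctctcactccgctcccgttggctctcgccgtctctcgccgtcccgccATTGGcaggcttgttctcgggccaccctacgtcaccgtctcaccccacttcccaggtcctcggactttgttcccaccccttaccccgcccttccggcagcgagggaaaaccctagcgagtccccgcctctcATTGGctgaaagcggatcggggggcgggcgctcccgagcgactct

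The Hmgcs1 window holds 3 boxes and the other windows 1 each. Groups of the same hour gave other results. In RANKL plus I-BET compared with RANKL 0 of the 23 were called in either direction (median 0.11), and 6 were higher and 0 lower with the block, where 13.7% of all genes were higher and 14.4% lower (28.1% together). Fdft1 had 23.3 and 26.4 CPM in RANKL plus I-BET, against 27.0 and 25.8 CPM in RANKL (log2 −0.09 ± 0.15). All 3 groups at 4 hours were thus below both hour 0 libraries. Hmgcs1 was likewise at 98.0 and 72.7 CPM in RANKL plus I-BET, against 90.9 and 75.5 CPM in RANKL. The difference between the I-BET effects alone and with RANKL was called for 0 genes of the list without the block and for 14 with it, 9 of them among the 10 that fell. Since the RANKL cells at 4 hours also lie below hour 0 for these 2 genes, the fall in I-BET-treated cells is not told apart from a change over 4 hours in culture.

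Genes of cholesterol export and fatty acid desaturation, known targets of the oxysterol receptor LXR, also fell. Of 16 tested 7 were lower and 0 higher (median −0.44), and 6 of the 7 stood without each library. With the block 9 were lower and 1 higher. Among all genes 6.48% were called lower and 4.03% higher (16.2% and 12.8% with the block). In RANKL plus I-BET compared with RANKL 4 of the 16 were lower and 1 higher (median 0.02). There 6.46% of all genes were lower and 4.93% higher, and 3 of the 7 genes were lower again. Scd2 (chr19:44293676-44306864), a stearoyl-CoA desaturase gene, had 365 and 378 CPM in I-BET-treated cells, against 1125 and 1229 CPM in untreated cells (log2 −1.66 ± 0.21, edgeR adjusted p = 0.00030). Abcg1, a cholesterol exporter gene, had 28.4 and 37.0 CPM, against 96.5 and 95.8 CPM (log2 −1.56 ± 0.29, edgeR adjusted p = 0.0040). Abca1, the other main exporter, had 4.27 and 2.95 CPM, against 18.2 and 12.8 CPM (log2 −2.09 ± 0.32, edgeR adjusted p = 0.0012). In each the treated libraries were far below the untreated ones. Abca1 was lower with RANKL too, at 6.51 and 4.62 CPM in RANKL plus I-BET, against 14.6 and 12.1 CPM in RANKL (log2 −1.26 ± 0.31, edgeR adjusted p = 0.017). Scd2 had 321 and 361 CPM in RANKL plus I-BET, against 282 and 297 CPM in RANKL (log2 0.23 ± 0.20, edgeR adjusted p = 0.60), and the difference between its 2 effects was −1.89 ± 0.18 with the replicate block (adjusted p = 0.00019). Abcg1 had 29.6 and 46.9 CPM in RANKL plus I-BET, against 24.3 and 40.4 CPM in RANKL, and its difference of effects was −1.82 ± 0.34 (adjusted p = 0.035 with the block). Scd2 and Abcg1 were thus below hour 0 in all 3 groups at 4 hours.

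**Figure D3:**
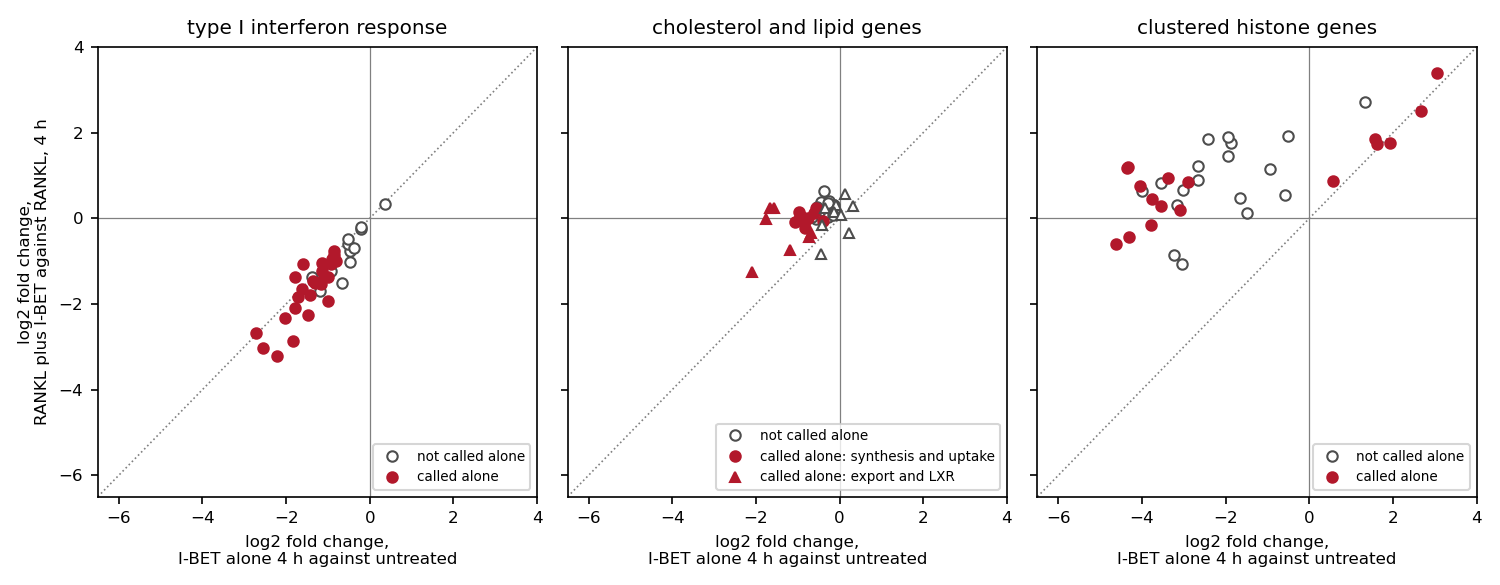
Log2 fold change of I-BET alone at 4 hours over untreated (horizontal) against that of RANKL plus I-BET over RANKL at 4 hours (vertical), 1 point per gene; filled points are called in the comparison with untreated cells and the dotted line marks equal effects. Interferon genes lie near the line (medians −1.13 and −1.37). Cholesterol synthesis genes (circles) are negative on the horizontal axis and near 0 on the vertical (medians −0.55 and 0.11). Export and LXR genes are triangles. Histone genes at low levels lie far left, among them the 11 called lower and others not called (horizontal median of the 36 tested −2.66).

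Genes of DNA replication fell by small amounts. Over all genes 6.48% were lower and 4.03% higher (16.2% and 12.8% with the block). Of 35 tested 20 were lower and 0 higher (median −0.39), and 15 of these 20 were also lower in RANKL plus I-BET than in RANKL. Mcm3, a subunit of the replicative helicase, had 179 and 179 CPM in I-BET-treated cells, against 257 and 265 CPM in untreated cells (log2 −0.54 ± 0.09, edgeR adjusted p = 0.0021). Uhrf1, which guides maintenance DNA methylation, had 167 and 150 CPM, against 295 and 245 CPM (log2 −0.77 ± 0.14, edgeR adjusted p = 0.0040; 0.055 without I-BET library 2). Cdt1, the licensing factor, had 57.3 and 70.6 CPM, against 108 and 99.8 CPM (log2 −0.70 ± 0.15, edgeR adjusted p = 0.011; 0.10 without I-BET library 1 and 0.078 without untreated library 1). Leaving out I-BET library 1 or 2 or untreated library 1 or 2 left 8, 5, 8 or 5 falls, and Mcm3, Mcm6 and Mcm10 kept theirs throughout. The 30 mitosis genes had 8 falls and 0 rises (median −0.28; 19 falls with the block), but 4, 0, 2 and 3 falls without I-BET library 1 or 2 or untreated library 1 or 2, and none of the 8 held in every case. Ccnb1, cyclin B1, was at 179 and 161 CPM, against 235 and 240 CPM (log2 −0.48 ± 0.09, edgeR adjusted p = 0.0033; 0.058 without I-BET library 2). Among 22 G1 genes Ccne1, Ccne2, Cdk2 and Rbl2 fell and E2f5 rose, and 0 rose and 0 to 1 fell when any 1 library was left out; with the block 2 rose and 14 fell.

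Of 39 genes of histone and chromatin enzymes 2 fell and 0 rose, a smaller share than the 6.48% of all genes called lower (8 and 10 with the block, where 16.2% of all genes were lower and 12.8% higher). Hdac9, a class IIa histone deacetylase gene, had 9.06 and 6.39 CPM in I-BET-treated cells, against 32.0 and 34.2 CPM in untreated cells (log2 −2.10 ± 0.21, edgeR adjusted p = 5.6e-05). Dnmt3a (chr12:3806007-3914443), a de novo DNA methyltransferase gene, had 104 and 88.1 CPM, against 283 and 253 CPM (log2 −1.48 ± 0.18, edgeR adjusted p = 0.00028). In both the treated libraries were far below the untreated ones, and both calls stood without each library and recurred in RANKL plus I-BET compared with RANKL (log2 −1.50 and −1.23).

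Stress and survival genes moved in small numbers. For comparison, 4.03% of all genes were called higher and 6.48% lower (12.8% and 16.2% with the block). Of 23 NRF2 and glutathione genes 4 rose and 0 fell (7 and 3 with the block). Srxn1, sulfiredoxin, had 149 and 123 CPM in I-BET-treated cells, against 83.8 and 73.0 CPM in untreated cells (log2 0.79 ± 0.14, edgeR adjusted p = 0.0030) and stood without each library. Hmox1, Gclc and Txnrd1 (log2 0.61 to 0.75) lost their calls without I-BET library 1 or untreated library 2, Gclc and Txnrd1 also without untreated library 1 and Gclc without I-BET library 2 (edgeR adjusted p 0.054 to 0.28). Of 20 p53 targets 3 rose and 1 fell (7 and 6 with the block), and 1 to 2 rose without 1 library. The polo-like kinase genes went opposite ways: Plk3 had 24.1 and 24.0 CPM, against 12.3 and 11.0 CPM (log2 1.05 ± 0.14, edgeR adjusted p = 0.00043), and Plk2 had 1.26 and 1.34 CPM, against 4.25 and 3.45 CPM (log2 −1.56 ± 0.30, edgeR adjusted p = 0.0046). Both stood without each library. Of 15 BCL2 family genes 6 fell and 0 rose, and 1 fell without untreated library 2 and 2 without any other 1 library; 1 of the 6 held in every case. The anti-apoptotic Bcl2a1b had 2.95 and 2.51 CPM, against 6.47 and 5.55 CPM (log2 −1.13 ± 0.19, edgeR adjusted p = 0.0023), and near-identical Bcl2a1 copies may share its reads. The pro-apoptotic Bmf was also lower, at 8.31 and 11.0 CPM, against 23.6 and 33.3 CPM (log2 −1.56 ± 0.32, edgeR adjusted p = 0.0068; 0.069 without I-BET library 1 and 0.082 without untreated library 2).

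Several housekeeping lists had no call: 0 of 35 cytosolic ribosomal protein genes (median −0.18), 0 of 29 oxidative phosphorylation genes (−0.13) and 0 of 23 genes of endoplasmic reticulum folding and heat shock passed the test in either direction. With the replicate block 10, 3 and 6 of them were lower and 0 higher. The shares over all genes were 6.48% lower and 4.03% higher (16.2% and 12.8% with the block). Glycolysis had 1 fall among 19 (1 rise and 8 falls with the block), the amino acid response 1 rise among 25 (5 rises and 3 falls) and the lysosome list 3 rises among 31 (5 rises and 6 falls). The lysosome rises numbered 0 without I-BET library 1 or untreated library 2 and 1 without I-BET library 2 or untreated library 1. The fall in glycolysis was lost without any 1 library, and the rise in the amino acid response without I-BET library 2 or untreated library 1.

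**Figure D4:**
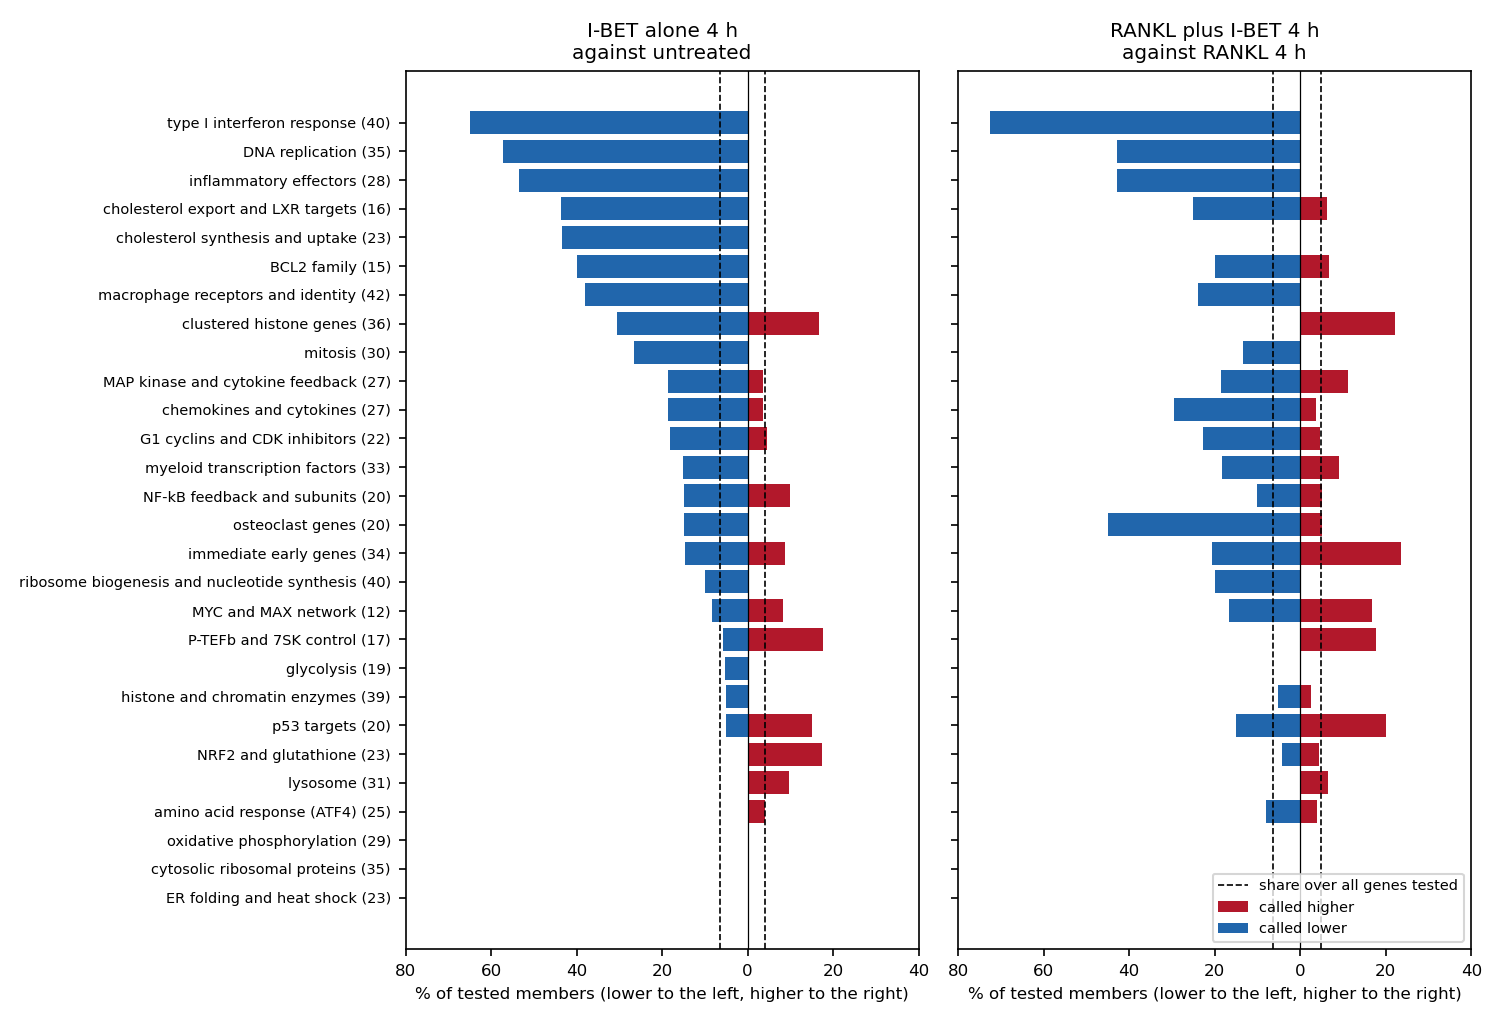
Percent of each list's tested genes called higher or lower, for lists with at least 10 tested genes: I-BET alone at 4 hours against untreated on the left, I-BET added to RANKL, compared with RANKL at 4 hours, on the right; dashed lines mark the share over all genes. Interferon genes are lower on both sides (26 and 29 of 40), cholesterol synthesis genes on the left alone (10 and 0 of 23).

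Outside the lists, the largest rises with a mean of at least 5 CPM were led, after the histone genes, by Bzrap1, Frmd6 and Arid5a. Bzrap1, whose product binds RIM proteins and the benzodiazepine receptor, had 11.8 and 13.9 CPM in I-BET-treated cells, against 2.64 and 2.76 CPM in untreated cells (log2 2.24 ± 0.30, edgeR adjusted p = 0.00046). Arid5a, which encodes an RNA-binding protein that stabilises cytokine transcripts, had 9.59 and 9.11 CPM, against 2.38 and 2.29 CPM (log2 2.0 ± 0.17, edgeR adjusted p = 2.2e-05). Fzd5, a Wnt receptor gene, had 16.1 and 15.8 CPM, against 5.33 and 5.31 CPM (log2 1.59 ± 0.13, edgeR adjusted p = 2.2e-05). In Arid5a and Fzd5 the libraries of a group nearly coincided. Frmd6, Tnks1bp1, Pdlim7, Abcc10 and Fmo5 also rose (log2 1.43 to 2.06), and these 8 kept their calls without each library.

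The largest falls above the same level included Angpt2 and Plau. Angpt2 (chr8:18690263-18741562), a ligand of the endothelial receptor TIE2, had 4.74 and 4.85 CPM in I-BET-treated cells, against 34.0 and 35.7 CPM in untreated cells (log2 −2.86 ± 0.21, edgeR adjusted p = 1.5e-05). Plau (chr14:20836662-20843388), urokinase plasminogen activator, had 38.8 and 35.4 CPM, against 220 and 228 CPM (log2 −2.59 ± 0.25, edgeR adjusted p = 4.2e-05). Ptpro, a receptor tyrosine phosphatase gene, had 5.64 and 7.61 CPM, against 37.9 and 46.8 CPM (log2 −2.68 ± 0.24, edgeR adjusted p = 2.9e-05). The treated libraries of all 3 were far below both untreated libraries. The adaptor genes Sla and Bcar3 fell by 2.63 and 2.54 on the log2 scale, and these 5 calls stood without each library. Rpph1, the RNA of ribonuclease P, had the lowest fold change by this rule, at 1.15 and 0.476 CPM against 3.0 and 126 CPM (log2 −6.31, edgeR adjusted p = 0.012). Rpph1 has no poly(A) tail, and without untreated library 2 its log2 fold change was −1.87 (edgeR adjusted p = 0.43); it was also not called without I-BET library 1 (0.069) or I-BET library 2 (0.13).

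Many of the changes recurred where RANKL was present. RANKL plus I-BET compared with RANKL at 4 hours gave 791 genes higher and 1037 lower (11.4% of genes), in 4 libraries that the comparison with untreated cells does not use. With the block these were 2202 and 2305, and leaving out any 1 of the 4 libraries left 266 to 407 higher and 500 to 567 lower. Of the genes called higher with I-BET alone 417 were higher there too (64.5% of the list alone and 52.7% of the list with RANKL), and of those called lower 612 were lower (58.9% and 59.0%). Snx30 was the 1 gene called in opposite directions. Recurrence differed between lists. The same call was found with RANKL for 26 of 26 interferon falls, 10 of 16 macrophage receptor falls and 9 of 15 inflammatory effector falls. It was found for 1 of 6 BCL2 family falls, 1 of 4 NRF2 rises and 0 of 3 p53 target rises. Among all genes 4.93% were higher there and 6.46% lower. Over the 16042 genes the 2 sets of log2 fold changes had a Pearson r of 0.56 and a Spearman rho of 0.57, as a description across genes, which are not independent replicates; without untreated library 2 these were 0.50 and 0.56. Hist1h2bc had 75.7 and 68.8 CPM in RANKL plus I-BET, against 7.15 and 6.57 CPM in RANKL (log2 3.40 ± 0.19). Myc had 5.84 and 4.84 CPM in RANKL plus I-BET, against 192 and 151 CPM in RANKL (log2 −5.0 ± 0.36).

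The test of the difference between the I-BET effects alone and with RANKL called 0 genes in edgeR without the block, with 702 genes at an unadjusted p under 0.05. It called 18 higher and 45 lower in DESeq2, and 61 higher and 134 lower with the replicate block (0.38% and 0.835% of genes, together 1.22%). Among those with the block were, besides the cholesterol genes and Scd2, Ptpro and Htr1b. Ptpro had 6.16 and 9.42 CPM in RANKL plus I-BET, against 16.6 and 23.8 CPM in RANKL, and the difference of effects was −1.30 ± 0.22 (adjusted p = 0.0047 with the block). Htr1b, a serotonin receptor gene, had 4.04 and 7.05 CPM with I-BET alone, against 23.7 and 43.3 CPM untreated, and 4.62 and 8.18 CPM in RANKL plus I-BET, against 7.36 and 14.7 CPM in RANKL (difference −1.82 ± 0.30, adjusted p = 0.0061 with the block). For both genes the larger fall was the one measured from hour 0.

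Direct comparison of I-BET alone with RANKL alone at 4 hours, both at the same hour, gave 1008 genes higher and 1424 lower with I-BET (6.28% and 8.88% of genes, together 15.2%). With the block these were 2481 and 2812, and without any 1 of the 4 libraries 446 to 662 and 729 to 932. This comparison shares the I-BET libraries with the one against untreated cells. Its 2 groups differ in RANKL as well as in I-BET, so the effects of the 2 agents cannot be told apart in it. For Acod1 the untreated level, given above, was far below the RANKL level. Acod1 had 2.95 and 1.97 CPM in I-BET-treated cells, against 175 and 148 CPM in RANKL cells (log2 −6.03 ± 0.35, edgeR adjusted p = 3.1e-07). Interferon genes were lower in 30 of 40 and higher in 1, cholesterol synthesis genes higher in 1 of 23 and lower in 0 (5 and 1 with the block). DNA replication genes were higher in 1 of 35 and lower in 3 (2 and 11 with the block). Brd2, Hexim1, Hist1h2bc, Hist1h1c and H1f0 were all higher with I-BET in this comparison at matched hours (log2 1.06 to 3.17), and Dnmt3a (−1.85), Hdac9 (−1.62), Irf9 (−1.57) and Xaf1 (−2.52) were lower.

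With I-BET alone for longer, 418 genes were higher and 434 lower at 14 hours than at 4 hours (5.31% of genes), and 788 higher and 885 lower at 24 hours than at 4 hours (10.4%). With the block these were 1848 and 1487 at 14 hours and 2554 and 2353 at 24 hours; without any 1 library they were 130 to 136 and 134 to 222, and 325 to 446 and 358 to 532. These comparisons share the I-BET libraries at 4 hours with the ones above. No untreated cells at 14 or 24 hours are used here. Longer I-BET treatment and longer culture therefore cannot be told apart in any of the values by hour. Brd2 was at 315 and 312 CPM at 0, 759 and 739 at 4, 512 and 493 at 14, and 549 and 554 CPM at 24 hours, so it peaked at 4 hours and stayed above hour 0 (14 against 4 hours: log2 −0.58 ± 0.08, edgeR adjusted p = 0.00097). Hist1h2bc was at 6.21 and 8.57 CPM at 0, 64.4 and 59.2 at 4, 25.7 and 24.8 at 14, and 35.7 and 31.5 CPM at 24 hours. H1f0 was not called lower at either later hour than at 4 hours, with 168 and 168 CPM at 0, 489 and 545 at 4, 455 and 555 at 14, and 614 and 776 CPM at 24 hours.

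Among genes that fell at 4 hours, the interferon genes fell further: 16 of 40 were lower and 1 higher at 14 hours than at 4 hours (2.71% and 2.61% of all genes), and 25 lower and 0 higher at 24 hours (5.52% and 4.91%). Xaf1 was at 10.5 and 9.81 CPM at 0, 2.22 and 2.79 at 4, 0.630 and 0.818 at 14, and 0.411 and 0.436 CPM at 24 hours. Il1rn was at 42.0 and 37.3 CPM at 0, 14.4 and 11.9 at 4, 2.76 and 2.36 at 14, and 2.49 and 2.14 CPM at 24 hours (24 against 4 hours: log2 −2.50 ± 0.16, edgeR adjusted p = 6.5e-07). Myc was at 17.7 and 8.32 CPM at 0, 0.897 and 0.702 at 4, 0.158 and 0.182 at 14, and 0.174 and 0.145 CPM at 24 hours. None of these 3 regained its 4-hour level.

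Other genes that fell at 4 hours were higher again later. Hdac9 was at 32.0 and 34.2 CPM at 0, 9.06 and 6.39 at 4, 28.3 and 22.6 at 14, and 33.8 and 25.2 CPM at 24 hours (14 against 4 hours: log2 1.72 ± 0.21, edgeR adjusted p = 0.00048). Scd2 was at 1125 and 1229 CPM at 0, 365 and 378 at 4, 943 and 1262 at 14, and 1611 and 1880 CPM at 24 hours (24 against 4 hours: log2 2.23 ± 0.21, edgeR adjusted p = 2.4e-05). Abcg1 was at 96.5 and 95.8 CPM at 0, 28.4 and 37.0 at 4, 98.0 and 126 at 14, and 187 and 179 CPM at 24 hours. At 24 hours these 3 genes stood near or above their hour 0 level, and 8 of the 16 export and LXR genes and 9 of the 23 cholesterol synthesis genes were higher than at 4 hours, with 0 lower in either list. A later fall was found in Igf1, insulin-like growth factor 1, which at 4 hours was called with the block (adjusted p = 0.011) and not without it (edgeR adjusted p = 0.11). It was at 49.6 and 49.4 CPM at 0, 37.4 and 29.2 at 4, 3.12 and 2.66 at 14, and 1.97 and 1.27 CPM at 24 hours (24 against 4 hours: log2 −4.34 ± 0.25, edgeR adjusted p = 6.5e-07).

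**Figure D5:**
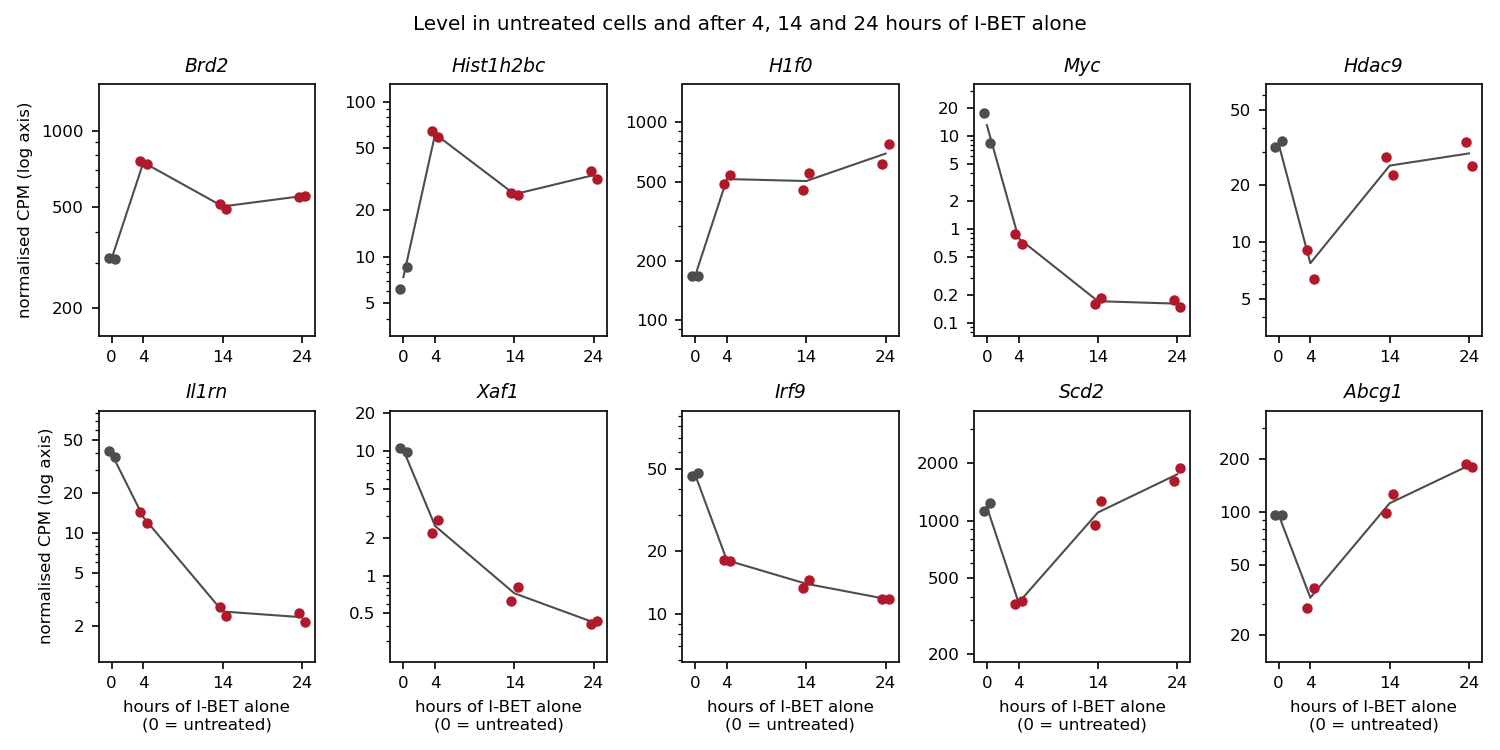
CPM (log axis) of 10 genes at 0 (untreated), 4, 14 and 24 hours of I-BET alone; points are libraries and lines join the means of 2. Brd2 and Hist1h2bc peak at 4 hours, Xaf1, Il1rn and Myc are lower still at 14 hours, and Hdac9, Scd2 and Abcg1 are near or above their hour 0 level by 24 hours.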

How the data were processed

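For 20 poly(A)-selected libraries the authors deposited whole read counts of each gene and, in a second table, RPKM; per the submitters' processing notes, the tools were FastQC, STAR 2.5.3a and DESeq2 1.16.1, and the build was GRCm38 (mm10). Which tool counted the reads, and whether by strand, is not given in the sources used here; overlapping, antisense and multicopy genes are uncertain. Counts were tested in edgeR 4.0.16 (R 4.3.3): TMM factors, filterByExpr by group, a model of group means on all 20 libraries, which leaves 10 residual degrees of freedom, robust quasi-likelihood tests, and Benjamini-Hochberg adjustment over 16042 genes in each of 6 comparisons; a call is an adjusted p under 0.05. CPM are TMM-scaled unless said to be of the total counts. Alternatives are RLE factors, other filters, no robust estimation, a replicate block, DESeq2 1.42.0, limma 3.58.1 on log2 RPKM, only the libraries compared, genes left out and each library left out. The fit without 1 library keeps 1 in that group, assumed to vary like the others. The fit that drops 5 rRNA-related genes was added with the data already seen.

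Library numbers pair the samples by the data: for each of the 45 pairs of groups, same-numbered libraries deviated together from their group means (r of 0.221 to 0.596, with a median of 0.454). For I-BET at 4 hours and untreated, r was 0.265, in the lower part of that range. The biological coefficient of variation was 0.162 without the block and 0.0751 with it. On simulated counts for this comparison (15663 genes) the test found 19 of 67 genes changed 1.5-fold, 38 of 67 changed 2-fold and 64 of 66 changed 4-fold, with 5 false calls. The simulated libraries varied independently, without deviations shared by library number and without a library like untreated library 2. These counts therefore describe that setting and not the error in these data.

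Named genes are fixed genes, the 12 largest rises and falls above a mean of 5 CPM, and up to 4 called members per list; for later hours and the difference of effects, the 5 largest each way. The text prints a part of these, favouring calls that stood without each library, and single list members, matched comparisons and hourly values beyond the rule were chosen after their values were seen. The members and lists were chosen with earlier results of these data known. Promoter windows are the 250 bases before the start in RefSeq (GRCm38.p6), while gene coordinates are from the deposited file (mm10). Figures were drawn with matplotlib 3.10.9. One or more fixed genes are not reported here.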

Additional observations from a re-analysis of the deposited data

How the results depend on the processing

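For I-BET alone against untreated the number of calls changed with the block, the RPKM fits and the libraries used. With the replicate block 2058 genes were higher and 2593 lower. With limma on log2(RPKM + 1) 1302 were higher and 499 lower, on log2(RPKM + 0.1) 1274 and 461; with only the libraries compared 249 and 474; with the block but without untreated library 2, 1002 and 1615; with 1 library left out 196 to 397 higher and 318 to 599 lower. For RANKL plus I-BET against RANKL the block gave 2202 and 2305, only the libraries compared 75 and 270, log2(RPKM + 0.1) 684 lower, and leaving out 1 library 266 to 407 higher and 500 to 567 lower. For the difference of effects RLE gave 2 and 2, no low-count filter 27 and 112, a CPM of at least 1 in 4 libraries 3 and 5, no robust estimation 2 and 3, the block 61 and 134, log2(RPKM + 1) 13 and 2, log2(RPKM + 0.1) 1 higher, DESeq2 18 and 45, only the libraries compared 1 lower, and leaving out 1 library 0 to 1 higher and 0 to 8 lower. For I-BET alone against RANKL the block gave 2481 and 2812, limma 861 and 838 lower, only the libraries compared 404 and 861, and leaving out 1 library 446 to 662 higher and 729 to 932 lower. For 14 against 4 hours the block gave 1848 and 1487, limma 263 and 246 higher, DESeq2 734 higher, only the libraries compared 30 and 79, and leaving out 1 library 130 to 136 higher and 134 to 222 lower. For 24 against 4 hours the block gave 2554 and 2353, log2(RPKM + 0.1) 515 higher, only the libraries compared 221 and 369, and leaving out 1 library 325 to 446 higher and 358 to 532 lower. The causes were not tested; a fit with only the compared libraries or without 1 library has fewer libraries. Of 118 named calls 69 were lost without 1 of the 4 libraries (45 and 63 without I-BET library 1 and 2, 37 and 52 without untreated library 1 and 2), 36 with only the libraries compared, 15 and 16 with limma, 14 with the block and without untreated library 2, 11 with no low-count filter, 2 with RLE, 2 without 5 rRNA-related genes, 1 in DESeq2 and 0 with the block, the CPM filter, no robust estimation or RNAs lacking a poly(A) tail left out. Changes of genes that were not called turned sign. Brd3 was 0.091 and 0.098 with limma and −0.16 to 0.055 without 1 library. Irf8 was −0.083 to 0.44 without 1 library. Csf1r was 0.0096 with the CPM filter, 0.012 without 5 rRNA-related genes, 0.015 with only the libraries compared, 0.15 with limma and −0.14 to 0.12 without 1 library. Ccl2 was 0.090 and 0.12 with limma and −0.38 to 0.35 without 1 library. The called Rmrp was −7.29 to 0.44 without 1 library and, with the block and without untreated library 2, 0.49; there Hist2h2ac was 0.18 and CT010467.1 0.0022. Depth limits low genes: untreated library 1 has the fewest counts.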
